A study of Mus musculus with 32 samples.

Results

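The genes described here act in bone morphogenetic protein (BMP) and activin signalling. They are the ligand and ligand-subunit genes Bmp2, Bmp4 and Inhba, the receptor genes Bmpr1a and Bmpr2, and the genes for secreted inhibitors and their relatives, Grem1, Fst, Fstl1 and Fstl3. The 9 genes were chosen by symbol, with the prior knowledge that Grem1 was lower in knockdown than in control libraries on each day. Of the 9, 8 were found in a table of 20560 genes, and Bmp2 is not analysed here. Because the knockdown values of Grem1 took part in the choice, they are given as a description with no test. RNA was sequenced from 3T3-L1 cells, a clonal mouse preadipocyte line that accumulates fat and expresses adipocyte genes when treated with hormones. Control cells carried a scramble short hairpin RNA (shCtrl). Knockdown cells carried shRNA #1 or shRNA #2, both directed against Zbtb9, a gene for a zinc finger protein with a BTB domain. All groups therefore carried an shRNA, and all were differentiated: day 0 was the start of a cocktail of dexamethasone, 3-isobutyl-1-methylxanthine and insulin, insulin alone followed from day 3, and plain culture medium from day 7. At each of days 0, 3, 7 and 11 there were 4 control libraries, 2 of shRNA 1 and 2 of shRNA 2, 32 libraries in all. The labels call them biological replicates and do not say whether they were separate cultures, so p-values measure the spread between these libraries. How the shRNAs were delivered, and whether cells were pools or clones, is not given in the sources used here.

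BMP ligands bind a pair of type I and type II receptor kinases, which phosphorylate SMAD proteins that enter the nucleus and switch on genes such as the Id family. Gremlin 1 (Grem1), noggin and chordin-like proteins bind BMPs outside the cell and keep them from the receptors, while follistatin (Fst) and follistatin-like 3 (Fstl3) bind mainly activins, dimers of the subunit that Inhba encodes. In preadipocytes, BMP4 is known to promote commitment to the fat lineage, and gremlin 1 and activin A are known to oppose adipocyte formation.

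Promoter sequence was matched to 7 of the 8 genes in RefSeq (GRCm38.p6), and 3 of these windows are shown. Each runs 250 bases up to the annotated start, 5′ to 3′ on the gene's strand, and overlaps no annotated exon. Grem1 and Bmp4 are shown because both fell in control cells by day 3 and climbed again from day 7 to day 11, and Inhba because it rose by day 3. Capitals mark GGCGCC, searched on both strands.
Grem1, chr2:113758649-113758898, minus strand: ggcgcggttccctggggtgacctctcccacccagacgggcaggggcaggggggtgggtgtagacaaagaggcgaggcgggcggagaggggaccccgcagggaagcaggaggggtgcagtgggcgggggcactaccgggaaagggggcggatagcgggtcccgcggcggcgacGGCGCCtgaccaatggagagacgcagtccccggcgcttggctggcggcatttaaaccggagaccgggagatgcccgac
Bmp4, chr14:46390670-46390919, minus strand: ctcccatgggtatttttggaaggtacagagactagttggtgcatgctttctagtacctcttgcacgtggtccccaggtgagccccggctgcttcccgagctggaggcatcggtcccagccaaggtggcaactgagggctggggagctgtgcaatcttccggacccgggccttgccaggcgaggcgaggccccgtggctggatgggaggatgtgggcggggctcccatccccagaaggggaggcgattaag
Inhba, chr13:16011601-16011850, plus strand: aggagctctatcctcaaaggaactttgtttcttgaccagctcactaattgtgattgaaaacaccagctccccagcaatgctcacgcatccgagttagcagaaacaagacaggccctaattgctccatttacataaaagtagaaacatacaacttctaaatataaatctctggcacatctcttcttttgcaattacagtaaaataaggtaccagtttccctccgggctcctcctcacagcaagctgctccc
The Grem1 window is 72.0% G and C, the Bmp4 window 63.2% and the Inhba window 43.2%, against a median of 52.4% over 32851 promoter windows. GGCGCC begins 78 bases before the start of Grem1 and was also found in the windows of Bmpr1a and Bmpr2. Of the 250 bases of each window, 141 for Bmpr1a and all 250 for Bmpr2 lie in annotated exon of the gene. It occurs in 9.59% of all windows. CCAAT, searched on both strands, was in the windows of Grem1 and Bmpr1a and occurs in 33.8% of all windows. TGACGTCA, its own reverse complement, was in none of the 7 windows and occurs in 1.55% of all. CAGACA, on both strands, was in the Fstl3 window alone among the 7 and occurs in 17.1% of all. Such matches describe letters and are not binding sites.

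Levels below are in normalized reads: whole reads recovered from the deposited values and scaled by each library's size factor. Log2 differences and their tests are on the deposited log2 scale, which draws the values of rarely read genes towards their mean and so understates their changes. A gene is called at an adjusted p under 0.05 by limma, a linear model fitted over all genes tested, with Benjamini-Hochberg adjustment. Libraries held 22280363 to 31073726 reads in genes. Only at day 11 did the arms not overlap in depth: the knockdown libraries had 22839508 to 25511855 reads and the controls 26486057 to 31073726. Zbtb9 itself was thinly read. Control libraries ranged from 6.35 to 22.3 normalized reads and knockdown libraries from 0 to 19.3, with knockdown means at 61.9%, 50.6%, 42.7% and 54.5% of control on days 0, 3, 7 and 11. The 2-sided exact permutation p was 0.0286, 0.114, 0.0286 and 0.143, and adjusted over the 4 days 0.0571, 0.143, 0.0571 and 0.143. By limma the day 0 difference of Zbtb9 was -0.21 (adjusted p = 0.271). No limma test is given for the later days, because at days 7 and 11 it passed the filter on low values through the controls and at day 3 it did not pass. The groups overlapped at days 3 and 11, and at day 11 1 shRNA 1 library, at 19.3, lay within the controls.

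Cell type markers moved with the knockdown and stand beside every difference below. All 10 adipocyte markers were in the table. Their summed normalized reads were 19721 to 20319 in control and 21959 to 23559 in knockdown libraries at day 0. By day 3 they were 26377 to 31618 in control and 43730 to 58789 in knockdown. The day 7 sums were 47571 to 51813 and 124773 to 187833, and those of day 11 were 56577 to 66729 and 114747 to 138973. Of 9 adipocyte markers tested, 9, 9 and 8 were higher in knockdown on days 3, 7 and 11, and none was lower. Of all genes tested, 14.6%, 24.9% and 16.8% were higher on these days. At day 0, 4 of the 9 (Adipoq, Cfd, Plin1 and Retn) had under 3 normalized reads in every library, Cfd and Retn 0 in all, and passed only because the deposited scale lifts such values. Of the other 5, 1 was higher at day 0, beside 0.817% of all genes tested. Of 8 fibroblast and preadipocyte markers, 2, 2, 7 and 4 were lower and 0, 1, 0 and 0 higher on days 0, 3, 7 and 11. Of all genes tested, 2.44%, 12.1%, 22.6% and 16.2% were lower and 0.817%, 14.6%, 24.9% and 16.8% higher. The summed reads of these markers at day 7 were 583523 to 633925 in control and 455517 to 513975 in knockdown. Of the osteoblast and chondrocyte markers, the mean reached 10 normalized reads in a group only for Dmp1, Alpl, Runx2 and Sox9, and Bglap was at 0 in all day 11 libraries. Of the blood cell markers this held only for Csf1r, Cd68 and Cd14, with Ptprc at 0 in all day 3 libraries. Of the endothelial markers it held only for Pecam1 and Vwf, and of the muscle markers only for Des and Myh11. Alpl was called higher in knockdown at days 3, 7 and 11 (log2 differences 1.47, 3.30 and 2.03), and Sox9 lower at days 3 and 7 (-0.40 and -0.83). Des was higher at days 7 and 11 (0.75 and 0.77) and Myh11 at day 7 (0.48), and the muscle marker sums at day 7 were 320.0 to 414 in control and 576 to 726 in knockdown. Cd68 was higher at days 7 and 11 (0.87 and 0.86) and Cd14 lower at days 3 and 7 (-0.34 and -0.40), with blood cell marker sums at day 11 of 678 to 804 in control and 881 to 1039 in knockdown. Vwf was lower at day 11 (-0.51). The part of cell composition in the results was not tested, and in bulk RNA fewer cells of a type and less RNA per cell cannot be told apart.

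Per kilobase of annotated exon, the levels of the genes spanned several orders of magnitude. In control libraries at day 0, Fstl1 had 6391 ± 130 normalized reads per kilobase and Grem1 5227 ± 196, followed by Fst (730 ± 22.6), Bmpr1a (592 ± 8.06), Bmpr2 (144 ± 6.97), Inhba (101 ± 15.1), Bmp4 (19.8, range 18.3 to 20.9) and Fstl3 (0.707, range 0 to 2.48; ± is SD, n = 4 throughout). No neighbours in this order had overlapping libraries. At day 3 Fst (2089 ± 60.1) and Grem1 (2041 ± 39.5) overlapped, as did Fstl3 (range 0 to 2.15) and Bmp4 (0 to 0.946). At day 11 the secreted inhibitor Grem1 led with 9023 ± 311, ahead of Fstl1 with 5135 ± 219. The antagonist genes Grem1 and Fst were thus read far more deeply per kilobase than the ligand gene Bmp4 on every day.

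**Figure D1:**
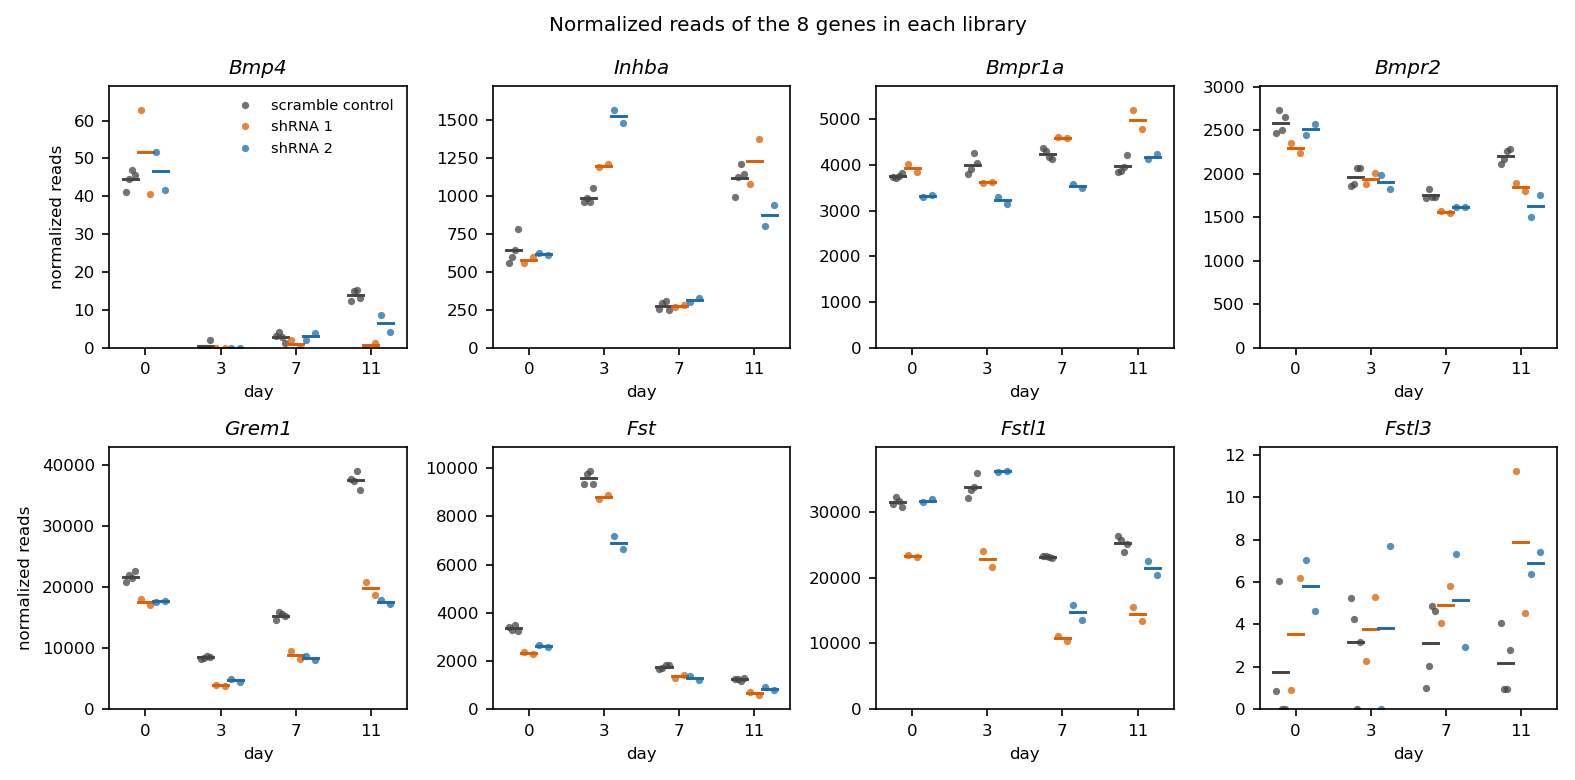
Normalized reads (y axis, linear from 0) of the 8 genes by day (x axis) in each of the 32 libraries. Points are libraries, bars are group means, grey is scramble control, orange shRNA 1 and blue shRNA 2. Grem1 control libraries at day 11 sit between 35785 and 38905 and all knockdown libraries between 17262 and 20771.

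The stated choice of genes did not use the course of the control libraries over the 4 days, although earlier results of these data were known. Of the 8 genes, 7 passed the filter on low values, and Fstl3 did not. At day 3 against day 0, limma called 4 of the 7 higher and 3 lower, where 76.6% of all genes tested were called. At day 7 it called 1 higher and 6 lower (69.1% of all genes), and at day 11 it called 2 higher and 4 lower (64.6%). From day 3 to day 7, 2 were called higher and 4 lower (74.2%), and from day 7 to day 11, 5 higher and 2 lower (55.0%). More of the genes tested were called than not in each step, and so were more of the members.

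The ligand gene Bmp4 (GRCm38 chr14:46383520-46390669, minus strand) nearly vanished from control cells by day 3. At day 0 the 4 control libraries had 41.3, 44.5, 46.9 and 45.6 normalized reads, and at day 3 they had 0, 0, 0 and 2.13. At day 7 the values were 2.95, 4.06, 2.91 and 1.16, and at day 11 they were 12.2, 14.95, 15.2 and 13.0. All day 11 libraries lay above all day 7 and below all day 0 libraries. In rebuilt reads, day 0 exceeded day 3 by 84.4-fold (95% interval 23.1 to 702, from 198 against 2 reads, counting error only). By limma, Bmp4 fell by 1.53 on the log2 scale from day 0 to day 3 (SE 0.11, adjusted p = 1.32e-14). It then rose by 0.55 from day 7 to day 11 (SE 0.11, adjusted p = 7.19e-05), while its difference between days 3 and 7 was 0.14 (adjusted p = 0.238). With voom, limma's method for counts, on the rebuilt reads these 3 differences were -5.84, 2.16 and 2.01 (adjusted p = 3.99e-12, 0.000203 and 0.00347), so the last was called there, as it was on log2 of the rebuilt reads and with a plain variance prior (adjusted p = 0.00592 and 0.0111).

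Inhba (chr13:16011851-16031621, plus strand), which encodes the activin A subunit, swung up, down and up again. Control libraries had 557, 596, 646 and 778 normalized reads at day 0 and 962, 986, 957 and 1050.0 at day 3. They had 253, 293, 308 and 251 at day 7 and 991, 1121, 1207 and 1144 at day 11. The day 7 libraries were the lowest of all, and those of days 3 and 11 overlapped. Inhba rose by 0.59 on the log2 scale from day 0 to day 3 (SE 0.08, adjusted p = 5.94e-08), fell by 1.71 from day 3 to day 7 (SE 0.08, adjusted p = 2.85e-18) and rose by 1.87 from day 7 to day 11 (SE 0.08, adjusted p = 9.28e-19).

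Among the receptor genes, Bmpr2 (chr1:59763400-59879014, plus strand), for a type II receptor, had control means of 2587 ± 125, 1964 ± 110, 1751 ± 49.0 and 2206 ± 83.2 normalized reads on days 0, 3, 7 and 11 (SD, n = 4). It fell below day 0 at each later day, with log2 differences of -0.38, -0.54 and -0.22 (SE 0.04 for each, adjusted p = 9.59e-10, 3.75e-13 and 3.80e-05). Bmpr1a (chr14:34410734-34503341, minus strand), a type I receptor gene, had means of 3762 ± 51.2, 4006 ± 190, 4243 ± 115 and 3979 ± 175. Its log2 differences from day 0 were 0.09, 0.17 and 0.08 (adjusted p = 0.0350, 0.000169 and 0.0679). With each library rescaled to the same total, the day 3 difference of Bmpr1a turned to -0.04 (adjusted p = 0.324). It was not called with no filter, a plain variance prior, voom on the rebuilt reads or all 32 libraries fitted together (adjusted p = 0.0534, 0.0641, 0.0512 and 0.312), and the last also lost the day 7 call (adjusted p = 0.0555). The day 3 call was also lost when shCtrl replicate 1, 2 or 3 of day 0, or replicate 3 or 4 of day 3, was left out (adjusted p up to 0.178), while the day 11 difference was called without shCtrl replicate 1 of day 11 (adjusted p = 0.0464). Bmpr1a was also called from day 3 to day 7 (0.08, adjusted p = 0.0486) and from day 7 to day 11 (-0.09, adjusted p = 0.0388). Both calls were lost with no filter, a plain variance prior or all 32 libraries (adjusted p from 0.0604 to 0.351), and the later one with rescaled totals (adjusted p = 0.120). In all, 6 of 10 alternative fits kept each call. Of 16 fits that left out 1 control library, 6 kept the first and 11 the second; the first was lost without any library of day 0, replicate 1, 2 or 4 of day 3, replicate 1 or 2 of day 7 or replicate 3 of day 11, and the second without replicate 1 or 2 of day 7 or replicate 1, 2 or 3 of day 11.

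Among the secreted inhibitors, Grem1 and Fst ran in opposite directions. Grem1 (chr2:113746164-113758646, minus strand) had 20710, 21948, 21432 and 22629 normalized reads in control libraries at day 0 and 8274, 8383, 8621 and 8579 at day 3. It had 14508, 15804, 15601 and 15263 at day 7 and 37710, 37310, 38905 and 35785 at day 11. No 2 days overlapped. From day 0 to day 3 it fell by 1.32 on the log2 scale (SE 0.04, adjusted p = 6.60e-27). The rises from day 3 to day 7 and from day 7 to day 11 were 0.83 and 1.25 (SE 0.04 for each, adjusted p = 9.99e-21 and 2.69e-25), so the day 11 mean was 4.42-fold the day 3 mean.

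Fst (chr13:114452290-114458951, minus strand), the follistatin gene, had 3390, 3281, 3479 and 3253 normalized reads in control libraries at day 0 and 9357, 9765, 9876 and 9341 at day 3. It had 1648, 1694, 1838 and 1832 at day 7 and 1265, 1232, 1175 and 1280 at day 11. The day 3 libraries were the highest and the day 11 libraries the lowest, with no overlap between days. Fst rose by 1.47 on the log2 scale from day 0 to day 3 (SE 0.04, adjusted p = 1.09e-26), and then changed by -2.37 to day 7 and by -0.48 from day 7 to day 11 (SE 0.04 for each, adjusted p = 6.20e-32 and 1.92e-12). The day 3 mean was 7.74-fold the day 11 mean.

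Fstl1 (chr16:37776873-37836514, plus strand), a secreted glycoprotein gene of the follistatin-like family, stayed among the most abundant of the 8. Its control means were 31406 ± 640, 33724 ± 1560, 23155 ± 150 and 25235 ± 1077 normalized reads on days 0, 3, 7 and 11 (SD, n = 4). Its log2 differences from day 0 were 0.10, -0.43 and -0.31 (adjusted p = 0.0117, 7.82e-13 and 2.42e-09). With rescaling to equal totals, the day 3 difference of Fstl1 was -0.03 (adjusted p = 0.455), and without shCtrl replicate 4 of day 3 it was 0.07 (adjusted p = 0.0839). With all 32 libraries fitted together Fstl1 was not called at day 3 or day 11 against day 0, or from day 7 to day 11 (adjusted p = 0.576, 0.0898 and 0.556). Fstl3 (chr10:79777272-79782630, plus strand) had at most 6.07 normalized reads in any control library and was not tested by the model. Of its 2445 exon bases, 1157 are also exon of Prss57 on the other strand, and the strand setting of the counting is not given in the sources used here. The same holds for 89 of 2248 exon bases of Bmp4, 290 of 6351 of Bmpr1a and 115 of 4589 of Fst, which predicted genes overlap.

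**Figure D2:**
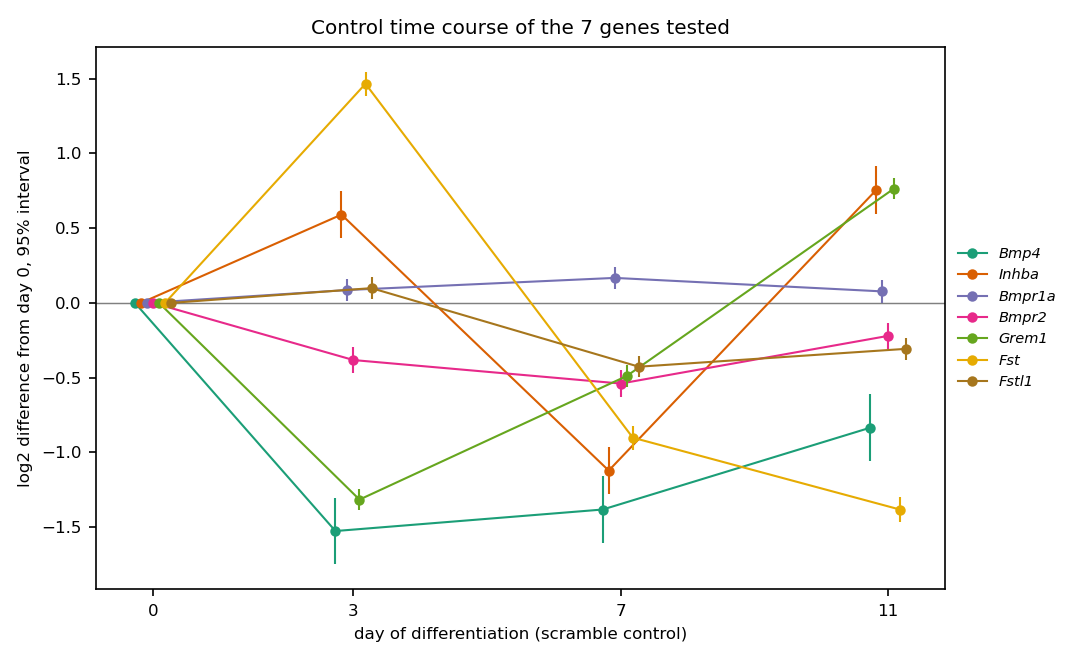
Log2 difference from day 0 (y axis) at days 3, 7 and 11 (x axis) in the control libraries, for the 7 genes tested, with limma's 95% interval as bars and points shifted sideways for clarity. Fst peaks at 1.47 at day 3 and ends at -1.38, while Grem1 starts at -1.32 and ends at 0.76.

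Knockdown was compared with control on each day, and the days have separate control libraries. At day 0, 6 members were tested and limma called 1 lower and none higher, where 3.25% of all genes tested were called (2.44% lower and 0.817% higher). These 430 genes became 111, 115, 129 or 157 without 1 of the shCtrl libraries, 250 without shRNA 1 replicate 2, 261 with a plain variance prior and 3340 with the shRNAs as separate groups. For day 3 it called 1 of 5 higher and 2 lower, where 26.7% of all genes were called (12.1% lower and 14.6% higher). For day 7 it called none of 5 higher and 3 lower (47.6%, of which 22.6% lower and 24.9% higher). For day 11 it called none of 5 higher and 3 lower (33.0%, of which 16.2% lower and 16.8% higher). The median log2 difference of these members was -0.10, -0.22, -0.14 and -0.33, beside -0.01, 0, 0.01 and -0.01 over all genes tested. Grem1 is not in these counts. Bmp4 is in that of day 0 and left out of that of day 11, where it passed the filter only through the control libraries, in which it was high.

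Grem1, the gene whose knockdown values took part in the choice, was lower in every knockdown library than in every control library of the same day. At day 0 the knockdown libraries had 18042 and 17018 normalized reads with shRNA 1 and 17600 and 17764 with shRNA 2. At day 3 they had 4020 and 3828 with shRNA 1 and 4956 and 4456 with shRNA 2. At day 7 they had 9422 and 8225 with shRNA 1 and 8647 and 8049 with shRNA 2. The day 11 values were 20771 and 18688 with shRNA 1 and 17863 and 17262 with shRNA 2. As a share of the control mean, the knockdown mean was 81.2%, 51.0%, 56.1% and 49.8% on days 0, 3, 7 and 11. The log2 differences of means were -0.29, -0.95, -0.81 and -0.98. Within the knockdown libraries the day 3 mean was again the lowest, and the day 11 mean was 4.32-fold the day 3 mean (control 4.42). The day 11 mean was 1.06-fold the day 0 mean in knockdown and 1.73-fold in control. The share of all genes with all knockdown libraries below all controls was 7.98%, 12.8%, 20.9% and 17.3% on the 4 days, and the share with all above was 5.95%, 15.5%, 23.3% and 17.0%.

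Fst fell below control on every day. At day 0 the knockdown libraries had 2389 and 2270 normalized reads with shRNA 1 and 2662 and 2570 with shRNA 2. At day 3 they had 8721 and 8883 with shRNA 1 and 7189 and 6645 with shRNA 2. At day 7 they had 1305 and 1416, and 1375 and 1209. All lay below the lowest control of their day, as did the day 11 values of 715 and 600 with shRNA 1 and 902 and 775 with shRNA 2. The log2 differences were -0.42 (SE 0.05, adjusted p = 0.00286), -0.29 (SE 0.08, adjusted p = 0.0248), -0.39 (SE 0.06, adjusted p = 8.90e-05) and -0.70 (SE 0.10, adjusted p = 0.000275) on days 0, 3, 7 and 11. The day 3 peak of Fst was still present in knockdown, at 3.18-fold the day 0 mean. The day 3 call was lost without a filter (adjusted p = 0.0535), with a plain variance prior (adjusted p = 0.0519), and without shRNA 2 replicate 1 or shCtrl replicate 2 or 3 of that day (adjusted p from 0.0564 to 0.0647, and from 0.00442 to 0.0647 over all 8 fits that left out 1 library).

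Fstl1 was lower in knockdown at days 7 and 11. At day 7 the knockdown libraries had 11134 and 10395 normalized reads with shRNA 1 and 15894 and 13598 with shRNA 2, all below the controls. At day 11 they had 15533 and 13356, and 22582 and 20372, again all below the controls. The log2 difference was -0.85 at day 7 (SE 0.11, adjusted p = 7.67e-05) and -0.51 at day 11 (SE 0.14, adjusted p = 0.0219). At days 0 and 3 the groups overlapped, and the differences were -0.20 and -0.22 (adjusted p = 0.311 and 0.404). The day 11 call of Fstl1 was lost without shRNA 1 replicate 1 or shCtrl replicate 1, 2 or 4 of that day (adjusted p from 0.0510 to 0.0605).

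Fstl3 was read too rarely for the model. Its knockdown libraries had 0.924 and 6.20 normalized reads with shRNA 1 and 7.03 and 4.64 with shRNA 2 at day 0, and 11.2 and 4.54, and 6.38 and 7.44, at day 11. All 4 knockdown libraries at day 11 lay above the controls, which had 4.07, 0.934, 0.950 and 2.79. The 2-sided exact permutation p was 0.171, 0.8, 0.2 and 0.0286 on days 0, 3, 7 and 11, the last being the smallest that 4 against 4 allows, and adjusted over the 4 days it was 0.267, 0.8, 0.267 and 0.114. After adjustment this difference did not pass, while limma with no filter called it at day 11 (0.23, adjusted p = 0.0484).

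Bmp4 was lower in knockdown at day 11. The knockdown libraries had 0 and 1.14 normalized reads with shRNA 1 and 8.51 and 4.25 with shRNA 2, all below the lowest control at 12.2. The difference of means was -0.51 on the deposited log2 scale. No test of knockdown against control from the fit of the day 11 libraries is given, because the filter let the gene in through the controls, and without any 1 of them it fell under the filter. In the fit with no filter, which does not depend on that step, the difference was -0.51 (adjusted p = 0.00736). In rebuilt reads, control exceeded knockdown by 3.97-fold (95% interval 2.16 to 7.87, from 61 against 13 reads). Against shRNA 2 alone the ratio was 2.16 (interval 1.15 to 4.41). Against shRNA 1 it was 25.6 (4.43 to 1028), which rests on 1 read. At day 0 the knockdown libraries, at 62.9, 40.7, 51.8 and 41.7, overlapped the controls (difference 0.08, adjusted p = 0.734). All 4 knockdown libraries were at 0 at day 3, a drop from day 0 of at least 61.3-fold against a floor of 3 reads over the group, so the early loss of Bmp4 was seen in both arms. At day 7 Bmp4 was under the filter, with 0 to 3.90 normalized reads in knockdown and 1.16 to 4.06 in control.

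Inhba was higher in knockdown at day 3. The knockdown libraries had 1190 and 1207 normalized reads with shRNA 1 and 1567 and 1480 with shRNA 2, all above the highest control at 1050.0. The log2 difference was 0.43 (SE 0.08, adjusted p = 0.00161). On the other days the groups overlapped. The differences at days 0, 7 and 11 were -0.09, 0.08 and -0.11 (adjusted p = 0.603, 0.489 and 0.585).

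Of the receptor genes, Bmpr2 fell at day 11. Its knockdown libraries had 1896 and 1801 normalized reads with shRNA 1 and 1507 and 1749 with shRNA 2 against 2109, 2166, 2261 and 2288 in control, with no overlap. The log2 difference was -0.33 (SE 0.07, adjusted p = 0.00301). At day 7 Bmpr2 had 1568 and 1545, and 1621 and 1611, against 1718, 1824, 1728 and 1735 in control (difference -0.14, SE 0.05, adjusted p = 0.0325). That call was lost without shRNA 1 replicate 1 or 2, or shCtrl replicate 1, 2 or 4, of day 7 (adjusted p from 0.0514 to 0.0944). Of 11 alternative limma fits that kept all libraries of that day, 10 kept the call, and the highest adjusted p was 0.135. At days 0 and 3 Bmpr2 overlapped the controls, with differences of -0.10 and -0.03 (adjusted p = 0.298 and 0.706).

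Bmpr1a, the type I receptor gene, fell at day 3. Its knockdown libraries had 3614 and 3638 normalized reads with shRNA 1 and 3307 and 3146 with shRNA 2, against 3814, 3913, 4254 and 4042 in control (difference -0.22, SE 0.05, adjusted p = 0.00726). The differences at days 0, 7 and 11 were -0.05, -0.07 and 0.19 (adjusted p = 0.665, 0.533 and 0.0561). The day 11 difference was called with voom (0.21, adjusted p = 0.0437), with all 32 libraries fitted together (0.19, adjusted p = 0.0403) and with the shRNAs as separate groups (0.19, adjusted p = 0.00178). It was also called without shRNA 2 replicate 1 (0.24, adjusted p = 0.0187) or shRNA 2 replicate 2 (0.23, adjusted p = 0.0403) of day 11. As shown next, the shRNAs differed in this gene.

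Each shRNA was also set against the same control libraries, in a fit with 3 groups per day, so these comparisons share their controls. By that fit, Fst was lower with both shRNAs on all 4 days, with log2 differences from -0.12 to -0.87 for shRNA 1 and from -0.34 to -0.54 for shRNA 2. For shRNA 1, 3 of 6, 4 of 5, 3 of 5 and 4 of 5 members were called on days 0, 3, 7 and 11 (Bmp4 left out at day 11), beside 34.7%, 39.4%, 52.0% and 43.6% of all genes. For shRNA 2, 2 of 6, 3 of 5, 3 of 5 and 4 of 5 were called, beside 17.6%, 31.4%, 46.0% and 36.9%. Grem1, untested, had differences of -0.30, -1.07, -0.77 and -0.90 for shRNA 1 and -0.28, -0.82, -0.85 and -1.06 for shRNA 2.

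The shRNAs were then compared with each other, a contrast that the stated choice of Grem1 did not use. Of 7 members tested at day 0, 3 differed (35.0% of all genes), and of 6 at day 3, 5 differed (19.6%). At day 7, 2 of 6 differed (16.4%), and at day 11, 4 of 7 differed (22.0%). These shares moved with single libraries. The 2572 genes called at day 3 became 1633, 1670 or 1700 without shRNA 1 replicate 1 or 2 or shRNA 2 replicate 2, and 1710 or 1454 with no filter or a plain variance prior. The 2183 of day 7 became 1383, 1003 or 1325 without shRNA 1 replicate 1 or 2 or shRNA 2 replicate 1, and 1035 with a plain variance prior. The 2916 of day 11 became 1479 or 1693 without shRNA 1 replicate 2 or shRNA 2 replicate 1. Fstl1 differed on all 4 days. With shRNA 1 it was below control by limma on each day, at -0.42, -0.55, -1.07 and -0.78 (adjusted p from 3.93e-15 to 9.13e-08). With shRNA 2 it was 0.01 and 0.10 at days 0 and 3 (adjusted p = 0.817 and 0.0688) and -0.64 and -0.23 at days 7 and 11 (adjusted p = 2.11e-10 and 0.0158). The difference of shRNA 2 minus shRNA 1 was 0.43, 0.64, 0.44 and 0.56 (adjusted p = 1.13e-11, 1.93e-12, 1.87e-05 and 0.000124).

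Bmpr1a also differed between the shRNAs on all 4 days, and lay lower with shRNA 2, by -0.24, -0.16, -0.36 and -0.24 on the log2 scale (adjusted p = 6.15e-05, 0.0234, 5.34e-05 and 0.0107). Against control it was -0.17, -0.30 and -0.25 with shRNA 2 at days 0, 3 and 7 (adjusted p = 0.00121, 2.31e-06 and 0.000124). With shRNA 1 it was -0.14 and 0.32 at days 3 and 11 (adjusted p = 0.0146 and 0.000155). Its day 11 values were 5212 and 4780 normalized reads with shRNA 1 and 4133 and 4241 with shRNA 2, beside 3856, 3865, 3964 and 4231 in control. The difference between shRNAs was not called at day 3 without shRNA 1 replicate 1 or 2 or shRNA 2 replicate 2 (adjusted p from 0.0942 to 0.179), without a filter (adjusted p = 0.0987) or with a plain variance prior (adjusted p = 0.146), nor at day 11 with that prior (adjusted p = 0.0575) or without shRNA 1 replicate 1 or shRNA 2 replicate 1 (adjusted p = 0.0760 and 0.0722).

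For Inhba the shRNAs differed by 0.33 and -0.46 on days 3 and 11 (adjusted p = 0.000674 and 0.00864). On the later day it had 1081 and 1374 normalized reads with shRNA 1 and 801 and 943 with shRNA 2, against 991, 1121, 1207 and 1144 in control, and it was called lower with shRNA 2 (-0.34, adjusted p = 0.0126) and not with shRNA 1 (0.12, adjusted p = 0.327). The difference was not called without shRNA 1 replicate 2 (adjusted p = 0.0964) or shRNA 2 replicate 1 (adjusted p = 0.0927). For Fst the differences called were 0.16, -0.34 and 0.33 on days 0, 3 and 11 (adjusted p = 0.00866, 9.64e-07 and 0.0142). The call at day 0 was lost without shRNA 1 replicate 2 or shRNA 2 replicate 1 (adjusted p = 0.120 and 0.0974), and so was that at day 11 (adjusted p = 0.176 and 0.158). With a plain variance prior neither was called (adjusted p = 0.0597 and 0.0583). Grem1 differed at day 3, by 0.25 (SE 0.05, adjusted p = 0.000206), and was further below control with shRNA 1 there. Its differences on days 0, 7 and 11 were 0.01, -0.08 and -0.16, with 95% intervals from -0.07 to 0.09, from -0.21 to 0.05 and from -0.31 to -0.01 (adjusted p = 0.836, 0.476 and 0.118). Bmp4, which entered the day 11 fit through the controls that this contrast does not use, differed by 0.34 (adjusted p = 0.168). That difference was called with voom on the rebuilt reads (2.85, adjusted p = 0.0252), on log2 of the rebuilt reads (2.27, adjusted p = 0.0195) and with a plain variance prior (0.34, adjusted p = 0.0383). In the fit with 3 groups per day, no difference between shRNAs was called for Bmpr2. Its day 0 difference of 0.12 (adjusted p = 0.0674) stayed uncalled in 8 of 9 alternative fits that kept all libraries. The lowest adjusted p among those 9 was 0.0364, which is a call. Leaving out shRNA 2 replicate 2 moved the day 11 difference of Bmpr2 from -0.18 (adjusted p = 0.0894) to -0.28.

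**Figure D3:**
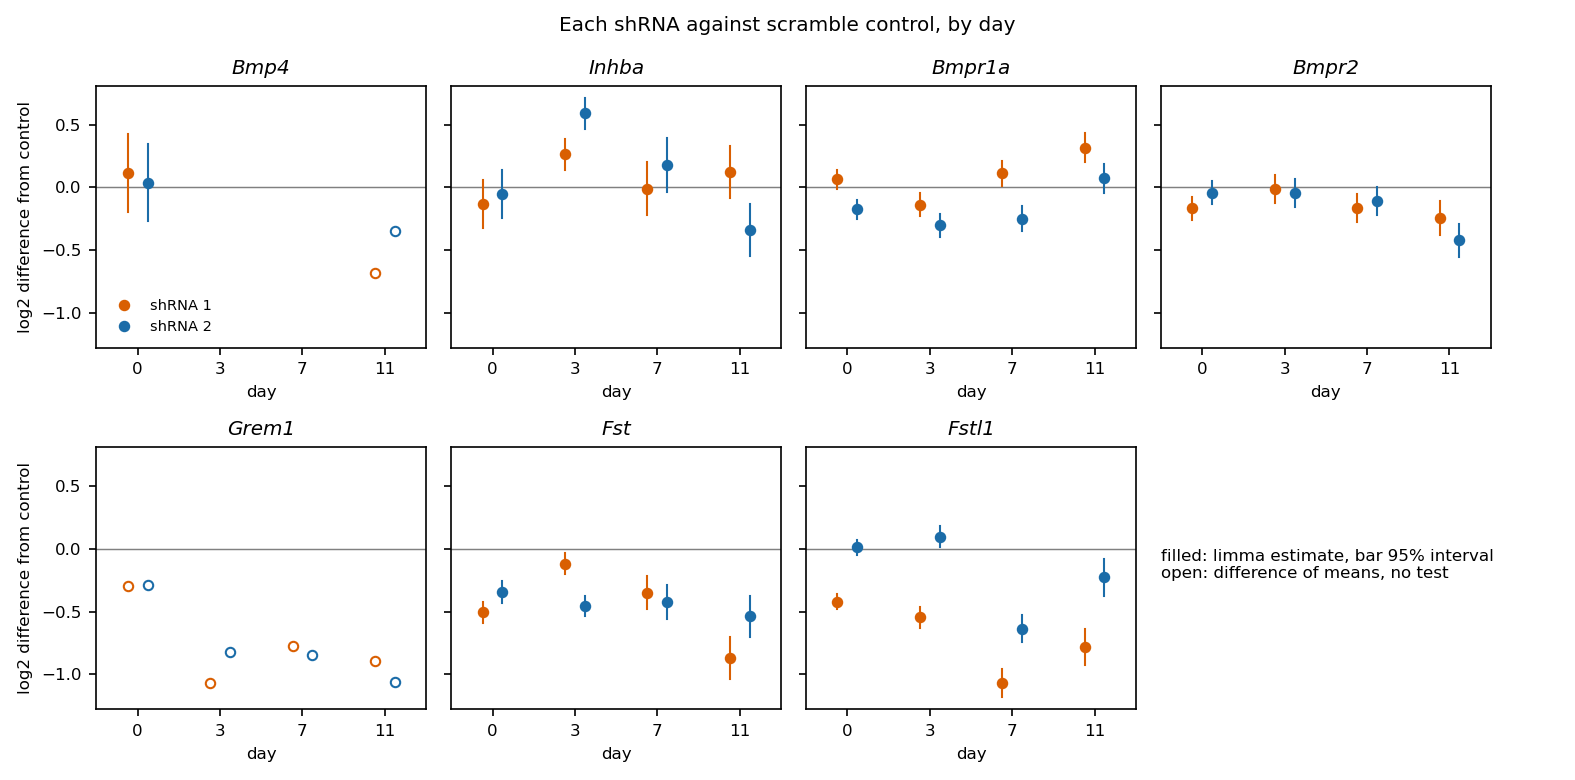
Log2 difference from control (y axis) for shRNA 1 (orange) and shRNA 2 (blue) by day (x axis), with limma's 95% interval as bars, for 7 genes. Open circles, for Grem1 and for Bmp4 at day 11, are differences of means without a test, and Bmp4 at days 3 and 7 is left out because it was under the filter. Fstl1 shows the shRNAs apart on all 4 days, and Bmpr1a has shRNA 2 below shRNA 1 on all 4 days.

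Whether the knockdown effect changed since day 0 was tested with the 32 libraries fitted together. At day 3, 1 of 6 members was called (6.57% of all genes), at day 7, 1 of 6 (29.9%), and at day 11, 2 of 6 (23.2%). The knockdown effect on Inhba was higher at day 3 than at day 0 by 0.52 (SE 0.16, adjusted p = 0.0400), and not called with no filter or a plain variance prior (adjusted p = 0.0511 and 0.0529). That on Fstl1 was lower at day 7 by -0.65 (SE 0.22, adjusted p = 0.0242). At day 11 those on Bmp4 and Bmpr2 were lower by -0.59 (SE 0.14, adjusted p = 0.00151) and -0.23 (SE 0.08, adjusted p = 0.0293). Fst did not pass (0.14, 0.04 and -0.28, adjusted p = 0.562, 0.840 and 0.0829), except at day 11 without shRNA 2 replicate 1 of that day (-0.37, adjusted p = 0.0105) or with rescaled totals (-0.33, adjusted p = 0.0362). Bmpr1a at day 11 (0.25, adjusted p = 0.0941) was called without shRNA 1 replicate 1 of day 0 or shRNA 2 replicate 1 of day 11 (0.30 in each, adjusted p = 0.0454 and 0.0461).

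Several of these calls rested on single libraries. The Inhba call was lost without any of shRNA 1 replicates 1 and 2, shRNA 2 replicate 2 and shCtrl replicates 3 and 4 of day 0, and shRNA 2 replicates 1 and 2 and shCtrl replicates 1, 2 and 3 of day 3 (adjusted p up to 0.106). The Fstl1 call was lost without any of shRNA 2 replicates 1 and 2 of day 0 and shRNA 1 replicates 1 and 2 of day 7 (adjusted p up to 0.0611). The Bmpr2 call was lost without any of shRNA 2 replicate 2 and shCtrl replicates 1 and 3 of day 0, and shRNA 2 replicate 1 and shCtrl replicates 3 and 4 of day 11 (adjusted p up to 0.0875). The Bmp4 call was kept in each of the 32 fits that left out 1 library.

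The other genes of the pathway were grouped by role. Of 18 other secreted antagonists, 13 were in the table and 9 or 10 were tested per day. Lower in knockdown were 1, 3, 4 and 2 of them on days 0, 3, 7 and 11, and higher were 0, 0, 0 and 1, beside background shares of 2.44%, 12.1%, 22.6% and 16.2% lower. The median difference of those tested was -0.06, -0.06, -0.26 and -0.11. Chrdl1, a chordin-like BMP inhibitor, fell at days 0, 3 and 7, with log2 differences of -0.36, -0.44 and -0.48 (adjusted p = 0.0200, 0.000376 and 7.02e-06). At day 7 Chrdl1 had 2876 ± 249 normalized reads in control and 2026 ± 47.7 in knockdown (SD, n = 4). Bmper, which binds BMPs outside the cell, fell at day 3 (-0.67, adjusted p = 8.03e-07) and day 11 (-0.78, adjusted p = 0.0101), and at day 7 its difference was 0.04 (adjusted p = 0.775). Twsg1, which binds BMPs together with chordin, fell at days 3, 7 and 11 (-0.17, -0.33 and -0.31, adjusted p = 0.00899, 0.000519 and 0.0243). Nog, the noggin gene, was the 1 antagonist that rose, at day 11 (0.62, adjusted p = 0.0108), and is named here after its values were seen. Its levels there were 34.5 ± 6.86 normalized reads in control and 71.3 ± 21.1 in knockdown.

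Of 19 other BMP, growth differentiation factor (GDF) and inhibin genes, 11 were in the table and 4 or 5 tested, with 1, 2, 3 and 3 lower and 0, 0, 1 and 1 higher on the 4 days. Over all genes tested, 2.44%, 12.1%, 22.6% and 16.2% were lower and 0.817%, 14.6%, 24.9% and 16.8% higher, which is the background for each list below. Inhbb, the activin B subunit gene, fell in control cells from 663 ± 67.9 normalized reads at day 0 to 25.4 ± 4.00 at day 7, and at day 11 it was 223 ± 26.9 in control and 98.3 ± 18.0 in knockdown (log2 difference -1.03, adjusted p = 0.000127). Gdf11 fell in knockdown at days 3, 7 and 11 (-0.29, -0.91 and -0.78, adjusted p = 0.0237, 1.59e-06 and 3.76e-05). Gdf5, a BMP-type ligand gene, rose at day 7 from 20.8 ± 6.49 in control to 126 ± 21.9 in knockdown (log2 difference 1.71, SE 0.14, adjusted p = 1.30e-07). Gdf10, lower in knockdown on all 4 days, is named after its values were seen. Its differences were -0.79, -0.77, -0.97 and -0.43 (adjusted p = 0.00543, 0.000632, 6.67e-05 and 0.0227). At day 11 the mean of Gdf10 in knockdown was under 10 normalized reads, where the deposited scale lifts low values. Of 9 other receptor genes tested, 0, 0, 3 and 3 were lower (background 22.6% and 16.2% at days 7 and 11) and 0, 1, 1 and 2 higher (24.9% and 16.8%). Acvr1b, an activin type I receptor gene, rose at days 7 and 11 (0.44 and 0.64, adjusted p = 7.54e-05 and 2.40e-05). Acvr2a, a type II receptor gene, was higher at day 3 (0.42, adjusted p = 0.000128) and lower at days 7 and 11 (-0.23 and -0.38, adjusted p = 0.00402 and 0.00161).

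Of 8 SMAD and SMAD ligase genes, 0, 1, 2 and 1 were lower and 0, 0, 1 and 1 higher, near or below the background of 22.6% and 16.2% lower and 24.9% and 16.8% higher at days 7 and 11. Smad3, which carries activin and TGF-beta signals, fell at days 3 and 7 (-0.30 on both, adjusted p = 0.0214 and 0.000195), and Smurf2, a ubiquitin ligase gene, rose at days 7 and 11 (0.31 and 0.30, adjusted p = 0.000179 and 0.000775). Of 10 BMP target and feedback genes tested, none was called at day 0 or day 3. At day 7, 5 were higher and 2 lower, and at day 11, 5 were higher and 1 lower, beside background shares of 24.9% and 16.8% higher. The median difference of the 10 was 0.13, 0.03, 0.22 and 0.17 on the 4 days. Smad7, an inhibitor that feeds back on the pathway, rose at day 7 (0.46, adjusted p = 0.000150) and at day 11 from 1372 ± 111 to 2802 ± 484 normalized reads (0.97, SE 0.11, adjusted p = 8.37e-05). Id1 rose at day 7 (0.39, adjusted p = 7.93e-05), and at day 11 its difference was -0.19 (adjusted p = 0.128). Atoh8 fell at both days (-0.49 and -0.58, adjusted p = 5.88e-06 and 0.0233). In control cells at day 3 against day 0, 4 of the 10 were higher and 3 lower, where 76.6% of all genes tested were called. Id1 and Id3 were higher by 1.84 and 2.17 (adjusted p = 4.82e-30 and 1.21e-31), while Smad6, Id4 and Smad7 were lower (-1.33, -0.69 and -0.51, adjusted p = 7.25e-20, 4.11e-07 and 2.01e-08).

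Among 7 activin and TGF-beta target genes, 1, 2, 2 and 1 were lower (background 2.44%, 12.1%, 22.6% and 16.2%) and 0, 1, 2 and 3 higher (0.817%, 14.6%, 24.9% and 16.8%). Ltbp2, for a protein of the extracellular matrix, fell at days 3, 7 and 11 (-0.30, -0.67 and -0.60, adjusted p = 0.000173, 9.39e-07 and 0.000866). The members of this list moved in both directions.

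**Figure D4:**
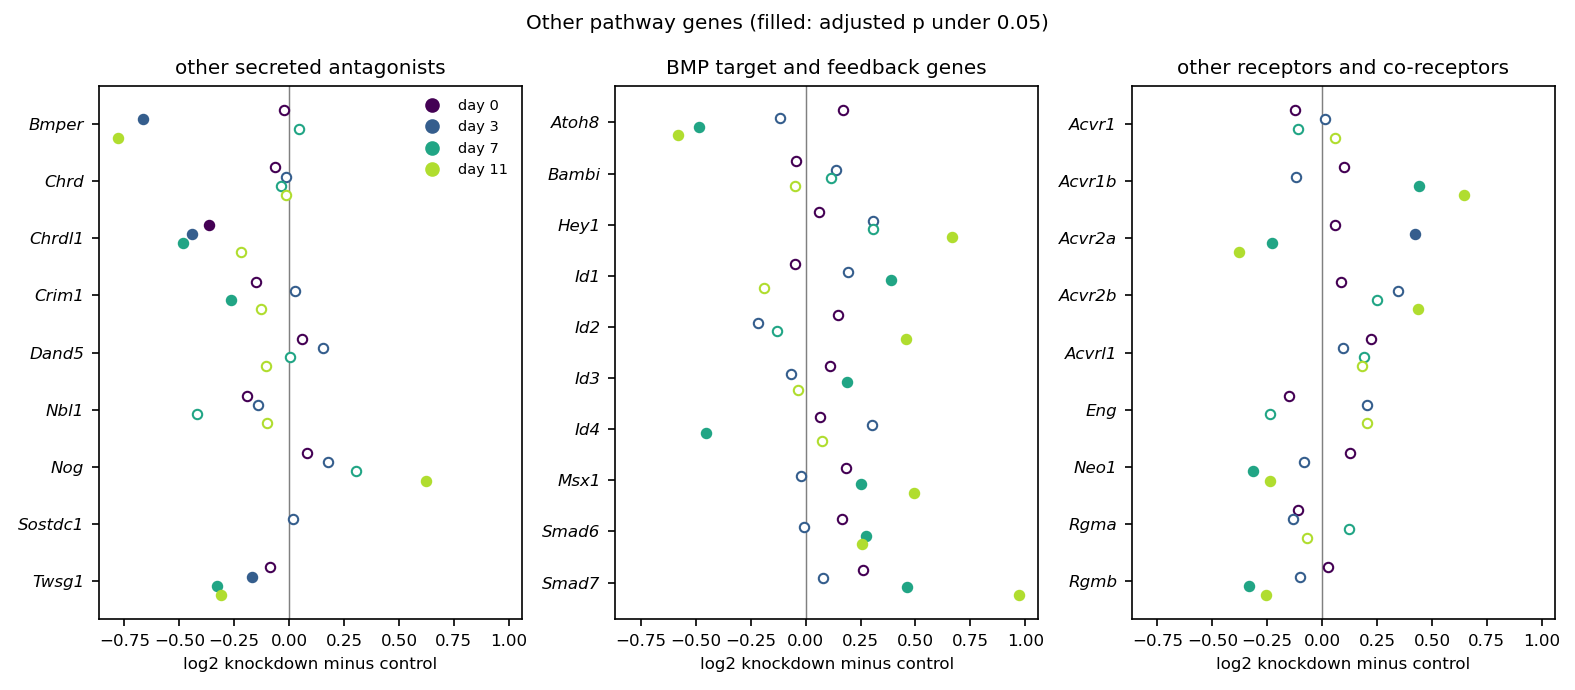
Log2 difference of knockdown minus control (x axis) for the other secreted antagonists, the BMP target and feedback genes and the other receptors and co-receptors (rows; 1 antagonist that was tested is not shown), coloured by day. Filled points have an adjusted p under 0.05. Chrdl1 lies at -0.36, -0.44 and -0.48 on days 0, 3 and 7, and Smad7 at 0.46 and 0.97 on days 7 and 11.

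The genes most like each member were found by Pearson's r of the deposited log2 values over the 32 libraries, among 12112 genes. The libraries share arms, days and depth, so r describes a common course and is given with no test. Most like Grem1 were Pla2g4a (0.975), Vstm2a (0.966), Abca8b (0.965), Lamp2 (0.958) and Gng12 (0.956). Vstm2a, for example, had 1277 ± 39.7, 301 ± 14.5, 923 ± 73.1 and 2054 ± 117 normalized reads in control and 1183 ± 62.4, 207 ± 46.4, 485 ± 50.4 and 1125 ± 246 in knockdown on days 0, 3, 7 and 11 (SD, n = 4). Like Grem1, it was lowest at day 3 and highest at day 11 in control. Fst was most like Oaf (0.990) and Fmnl2 (0.977), and Bmp4 most like Myo10 (0.974) and Cdh26 (0.973). Inhba was most like Arhgef2 (0.952) and Fam135a (0.931), Bmpr2 most like Cemip (0.938) and Pcdh19 (0.934), and Fstl1 most like Svil (0.940) and Sh3pxd2b (0.937). Bmpr1a had the lowest best match, Ankrd40 at 0.830, followed by Trmt112 at 0.791.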

How the data were processed

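The members and the gene lists were chosen with earlier results of these data known. RNA libraries came from a TruSeq kit, per the labels' protocols. The submitters' processing notes name TopHat2 2.1.0, Bowtie2 2.2.6, SAMtools 1.3.1 and HTSeq 0.6.1; the genome build, the annotation and the strand setting are not given in the sources used here. The deposited values, 1 per gene and library, are on a log2 scale with the form of a regularized log transform, as the values themselves show (from -1.56 to 17.99), and no header or label names that step. Reads were rebuilt by inverting that form with fitted parameters: 99.3% of values landed at most 0.1 from a whole number (20% if spread evenly). Simulated reads of 19977 genes were transformed and inverted with the same parameters, and 100.0% returned exactly. This checks the inversion step and not the fitted parameters or the assumed form. For Fstl1, the most abundant member at day 0, rebuilt reads were up to 0.411 from whole.

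limma 3.58.1 in R 4.3.3 was fitted to the deposited log2 values (robust, trended variance prior). A gene entered if 2 to the power of its value was at least 10 in at least 4 libraries of the fit. The fit was tested on simulated knockdown comparisons of the 4 days (13119 to 13255 genes, 200 changed). There it found 93% to 96% of log2 changes of 0.6 and 100% of those of 1, and 3.45% to 4.85% of its calls were false. The simulation gave both shRNAs the same effect and all genes a uniform dispersion. In the data the shRNAs differed in 16.4% to 35.0% of all genes tested on a day. These rates therefore do not carry over to the knockdown fits. No 2 replicates agreed within sampling noise (32 pairs, chi-square over degrees of freedom 3.0 to 11.76). Exact permutation tests used scipy 1.17.1. Intervals of read ratios are exact binomial, at 95%, and cover counting error only, as reads carry no molecular identifiers; the floor is 3 reads. Genes outside the 9 were named by a rule: up to 3 called genes per list, comparison and direction with the largest difference and at least 50 in the higher group, the marker lists, and the genes most like a member (5 for Grem1, 2 for the others). Some genes that the rule selects are counted in their lists and not reported here. Positions are from GENCODE M21 (GRCm38), where 20521 of 20560 identifiers matched. The labels give no batch. Alternatives were other filters, pseudocounts, scaling and fits, a replicate block, single libraries left out, and rebuilt reads.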

Additional observations from a re-analysis of the deposited data

Results flagged for a closer look

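In 3 groups of 4 control libraries, 1 library lay apart from the other 3 by Dixon's criterion. These were shCtrl replicate 4 at day 3 for Bmp4 (2.13 normalized reads, the others 0), shCtrl replicate 2 at day 7 for Bmpr2 (1824, the others from 1718 to 1735) and shCtrl replicate 2 at day 0 for Fstl3 (6.07, the others from 0 to 0.842). Chance flags about 1 in 20 groups, and 64 groups were examined.

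The other values listed here are differences between groups under the same contrast that limma called. Between the shRNAs (shRNA 2 minus shRNA 1, log2), Bmpr1a differed by -0.24, -0.16, -0.36 and -0.24 and Fstl1 by 0.43, 0.64, 0.44 and 0.56 on days 0, 3, 7 and 11. Fst differed by 0.16, -0.34 and 0.33 on days 0, 3 and 11, and Inhba by 0.33 and -0.46 on days 3 and 11. Grem1 differed by 0.25 on day 3. Between days, the knockdown effect differed from that of day 0 by 0.52 for Inhba at day 3, -0.65 for Fstl1 at day 7, and -0.59 for Bmp4 and -0.23 for Bmpr2 at day 11.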

How the results depend on the processing

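Of the values of single members under alternatives that kept all libraries, 995 were counted as keeping their direction and their side of the threshold. A further 33 lost and 14 gained a call, and 5 reversed. With single libraries left out, 1543 were counted as keeping both, 64 lost and 7 gained a call, and 26 reversed. These counts include the untested Grem1 knockdown values, which have no side of the threshold. Those were counted as kept when they moved by less than the SD within groups. Bmp4 in the day 11 knockdown comparison, which passed the filter only through the controls, is also included.
Same-numbered libraries correlated weakly at most. Over 24 pairs of arms within a day the correlation ran from -0.01 to 0.21, and 16 of 24 correlated best with their own number. For control libraries across days it ran from -0.09 to 0.12, and 8 of 24 did. Whether these counts exceed chance was not tested, so a pairing by replicate number was neither shown nor excluded. In the fit with the replicate block, the knockdown difference turned to 0.047 for Inhba at day 0 and 0.037 for Bmpr2 at day 3. Members called fell from 1 to 0, from 3 to 0 and from 3 to 1 on days 0, 3 and 11, and all genes called were 0, 845, 4112 and 1652 on days 0, 3, 7 and 11. With the shRNAs as separate groups, 3 members and 3340 genes were called at day 0 (Bmpr2, adjusted p = 0.0371, and Fstl1, adjusted p = 8.15e-08, beside Fst), and Fstl1 at day 3 (adjusted p = 1.41e-06), with 5311 genes. Rescaling to equal totals gave -0.040 for Bmpr1a and -0.028 for Fstl1 in control from day 0 to day 3, and -0.0285 for the change in the Fst knockdown effect at day 7. For the change of the effect at day 3, 0 members were called with no filter and 0 without the trended, robust prior, and at day 11 1 was called with a minimum of 50. The causes were not tested.

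With single libraries left out, members called ranged from 2 to 4 for knockdown at day 11 (Bmp4 not counted), from 1 to 5 between shRNAs at day 11, and from 0 to 1, 0 to 1 and 1 to 3 for the change of the effect at days 3, 7 and 11. All genes called at day 0 ranged from 111 to 562. The differences that changed sign, none of them called, ranged as follows. Inhba in knockdown at day 11 ranged from -0.24 to 0.0068. Between shRNAs, Bmp4 at day 0 ranged from -0.26 to 0.11, Grem1 from -0.028 to 0.054 at day 0 and from -0.17 to 0.020 at day 7, Bmpr2 at day 3 from -0.091 to 0.026 and Fst at day 7 from -0.16 to 0.016. For the change of the effect, Fstl1 at day 3 ranged from -0.13 to 0.11, Bmpr1a at day 7 from -0.075 to 0.053, Bmpr2 at day 7 from -0.064 to 0.0006, Fst at day 7 from -0.0006 to 0.080 and Inhba at day 11 from -0.15 to 0.10. Depth limits Bmp4 after day 0 and Fstl3 on all days, with few or no reads per library, and 2 libraries per shRNA and day limit the precision of each shRNA.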
